A study of Mus musculus with 6 samples.

Results

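The angiopoietin-TIE system was followed in fetal mouse aorta through 5 genes: the ligands Angpt1 and Angpt2, the receptors Tek and Tie1, and Ptprb, which encodes the phosphatase VE-PTP. Members were taken as every non-control probe whose gene name on the array was one of these, which gave 7 probes of 55681 non-control probes, and 5 genes of 34797 distinct names. Tek, Tie1, Angpt1 and Angpt2 had 1 probe each and Ptprb had 3.

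The arrays held RNA from aortic arteries of C57BL/6 fetuses at embryonic stage E18.5, from 3 Nod1 -/- and 3 Nod1 +/- samples described in the labels as littermates. All dams were Nod1 -/- and had been mated with Nod1 +/- males. Each dam had received 500 µg of FK565, a synthetic ligand of the intracellular peptidoglycan sensor NOD1, by subcutaneous injection 6 h before the vessels were taken. The study asked how the fetal vasculature itself responds to the ligand. Every array therefore came from a ligand-exposed pregnancy, and a ligand-free baseline was not analysed here. The Nod1 -/- genotype was that of the whole fetus, not of a chosen cell type. The labels do not say if an array held 1 fetus or a pool, and the p-values below cover only the spread among these arrays, which may be partly technical.

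TIE2, the product of Tek, is a receptor tyrosine kinase found mainly on endothelial cells and on some macrophages. ANG1, made largely by perivascular and mesenchymal cells, activates it and so steadies the endothelial barrier. ANG2, stored in and released from endothelial cells, blocks or weakly activates the same receptor depending on context. TIE1 is a related receptor that pairs with TIE2 and has no angiopoietin of its own, and VE-PTP removes phosphate from TIE2 and from junction proteins.

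The probe sequences are shown because each value below rests on what these few bases captured. The TIE receptors are paralogs, so their probes were compared directly. In the best ungapped alignment 39 of 57 overlapping bases were identical (68.4%), with a longest identical run of 8 bases. In the Tek and Tie1 probes below, capitals mark the bases shared in that alignment, and both are given whole, 5′ to 3′.
Tek: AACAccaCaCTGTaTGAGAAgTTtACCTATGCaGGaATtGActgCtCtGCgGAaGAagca
Tie1: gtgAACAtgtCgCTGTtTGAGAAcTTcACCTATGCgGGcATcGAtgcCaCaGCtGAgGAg
The Tek probe lay at chr4:94540624-94540683 on the plus strand of mm9, and the Tie1 probe at chr4:118144132-118144191 on the minus strand. For the other 5 probes the first 30 of their 60 bases are shown, in lower case throughout.
Angpt1: catgtgtgtagcaatttgatacgcatagct
Angpt2: acctatcttgatggcttagtttttaatggc
Ptprb probe 1: tctgtactccctaaaggtgagctattataa
Ptprb probe 2: caatctactcgagacattaagaattcacct
Ptprb probe 3: gcttctcttagctccgtgttaaggctctaa
Angpt1 was probed at chr15:42256335-42256394 and Angpt2 at chr8:18691458-18691517, both on the minus strand. The Ptprb probes lay on the plus strand at chr10:115756725-115756784, chr10:115820912-115820971 and chr10:115824180-115824239. Whether a probe lies in a coding exon or a UTR was not analysed here.

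Values below are log2 signals relative to the 75th percentile of the array, so 0 is the level of that percentile and 1 unit is a doubling. Across the 6 arrays 48.6% to 58.3% of probes were well above background, and no spot was saturated. The targeted gene Nod1 gave 3.20, 3.19 and 3.35 in Nod1 -/- aortas, against 3.15, 3.20 and 3.78 in Nod1 +/- aortas. The genotypes overlapped (difference -0.13, limma adjusted p = 0.648), and whether its probe at chr6:54874007-54874066 lies in the deleted part was not stated, so it does not check the labels. All 6 arrays shared 1 slide and 1 scan. Slide row 1 held Nod1 -/- replicates 1 and 2, and row 2 held Nod1 -/- replicate 3 with all 3 Nod1 +/- arrays. Nod1 +/- replicate 1 stood apart in skeletal muscle markers, whose centred mean was -1.03, -0.57 and -0.41 in Nod1 -/- aortas, against 3.35, -0.49 and -0.85 in Nod1 +/- replicates 1, 2 and 3. Their summed signal was 31.7 to 61.7 times the array's 75th percentile in Nod1 -/- and 40.8 to 595.2 times in Nod1 +/- aortas.

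All 5 genes had higher mRNA in Nod1 -/- than in Nod1 +/- aortas. Tek was 3.79-fold higher, Ptprb 3.23-fold, Angpt2 2.81-fold, Angpt1 1.72-fold and Tie1 1.51-fold. All 5 passed limma's test at an adjusted p of 0.05, against a background of 11% of 21477 tested genes called higher, 7.66% called lower and 18.7% called in either direction. For all 5 the genotypes did not overlap, which held with Nod1 -/- higher for 26.1% of genes tested. Tek, Ptprb and Angpt2 were also above 2-fold, as were 2.66% of genes. Without Nod1 +/- replicate 1, 3 of the 5 (Tek, Ptprb and Angpt2) were called, and the log2 differences were 1.84 for Tek, 1.58 for Ptprb, 1.45 for Angpt2, 0.91 for Angpt1 and 0.49 for Tie1. The median log2 difference of the 5 genes over all arrays was 1.49, beside 0.10 for all genes tested. Fewer cells of a type and less RNA per cell cannot be told apart in these whole-vessel samples.

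The ligand Angpt2 had values of 4.17, 4.41 and 4.203 in Nod1 -/- aortas, against 2.70, 2.91 and 2.71 in Nod1 +/- aortas. Its signal was bright in every sample, at 7064 to 9331 scanner units in Nod1 -/- and 2424 to 3264 units in Nod1 +/- aortas. The lowest Nod1 -/- array stood more than 1 unit above the highest Nod1 +/- array. Means were 4.26 ± 0.13 in Nod1 -/- and 2.77 ± 0.12 in Nod1 +/- aortas (SD, n = 3 each). The difference was 1.49 ± 0.12 (SE, 95% interval 1.21 to 1.77, limma adjusted p = 0.00146). By size of difference Angpt2 ranked 310 among the 21477 genes.

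The agonist Angpt1 had values of -2.27, -1.85 and -2.45 in Nod1 -/- aortas, against -2.71, -3.06 and -3.14 in Nod1 +/- aortas. It was a dim probe, at 75.4 to 121.5 scanner units in Nod1 -/- and 42.1 to 63.4 units in Nod1 +/- aortas, though well above background on all 6 arrays. Nod1 -/- replicate 3 and Nod1 +/- replicate 1 lay close together, and the genotypes were separate by a narrow gap. Means were -2.19 ± 0.31 in Nod1 -/- and -2.97 ± 0.23 in Nod1 +/- aortas (SD, n = 3 each). The difference was 0.78 ± 0.20 (SE, 95% interval 0.30 to 1.26, limma adjusted p = 0.0417). This call did not withstand most changes of processing. It held in 5 of 21 alternatives, and normexp background correction lowered the difference to 0.40 (adjusted p = 0.0656). Leaving out 1 array ended the call for Nod1 -/- replicates 1 and 2 (0.0973 and 0.106) and for Nod1 +/- replicates 1, 2 and 3 (0.0523, 0.112 and 0.0920), but not for Nod1 -/- replicate 3 (0.0459).

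The receptor Tek showed the largest difference of the 5 genes. Its values were 1.01, 1.19 and 0.70 in Nod1 -/- aortas, against -1.12, -0.71 and -1.03 in Nod1 +/- aortas. Every Nod1 -/- array was above the array's 75th percentile and every Nod1 +/- array below it. Means were 0.97 ± 0.25 in Nod1 -/- and -0.95 ± 0.21 in Nod1 +/- aortas (SD, n = 3 each). The difference was 1.92 ± 0.17 (SE, 95% interval 1.50 to 2.34, limma adjusted p = 0.00206), which ranked 103 of 21477 genes.

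The co-receptor Tie1 moved less. Its values were 1.86, 2.05 and 2.09 in Nod1 -/- aortas, against 1.19, 1.60 and 1.41 in Nod1 +/- aortas. The samples did not overlap, but Nod1 -/- replicate 1 and Nod1 +/- replicate 2 were close. Means were 1.998 ± 0.13 in Nod1 -/- and 1.40 ± 0.20 in Nod1 +/- aortas (SD, n = 3 each). The difference was 0.60 ± 0.14 (SE, 95% interval 0.26 to 0.93, limma adjusted p = 0.0335), and it ranked 2697. The call held in 9 of 21 alternatives. Leaving out 1 array ended it for Nod1 -/- replicates 1, 2 and 3 (adjusted p = 0.0637, 0.112 and 0.0812) and for Nod1 +/- replicates 1 and 3 (0.0879 and 0.0657), but not for Nod1 +/- replicate 2 (0.0442).

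The mRNA for VE-PTP was read by 3 Ptprb probes, and all 3 were higher in Nod1 -/- aortas. The array design assigns probe 1 to a different transcript record from probes 2 and 3. Whether all 3 read the same transcript was not tested. The brightest, probe 2, gave 4.46, 4.48 and 4.57 in Nod1 -/- aortas, against 2.58, 2.87 and 2.97 in Nod1 +/- aortas. Its means were 4.50 ± 0.06 in Nod1 -/- and 2.81 ± 0.20 in Nod1 +/- aortas (SD, n = 3 each), a difference of 1.69 ± 0.13 (SE, 95% interval 1.38 to 2.003, limma adjusted p = 0.00135 over genes). The 3 Nod1 -/- arrays lay within a far narrower span than the gap to Nod1 +/- arrays. Probe 3 had 1.32, 1.49 and 1.83 in Nod1 -/- aortas, against -0.32, -0.27 and 0.06 in Nod1 +/- aortas, and was 3.31-fold higher (adjusted p = 0.00339 over probes). Probe 1 had -1.15, -1.16 and -0.96 in Nod1 -/- aortas, against -2.44, -2.32 and -1.93 in Nod1 +/- aortas, and was 2.21-fold higher (adjusted p = 0.00868 over probes). Neither probe showed overlap between genotypes. Over the whole probe-level fit 7 of 7 member probes were called higher, against 9.12% of 30165 probes, and 7 of 7 did not overlap with Nod1 -/- higher, against 24.4%. Probe 1 gave a difference of 1.14, and normexp correction lowered it to 0.70.

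**Figure D1:**
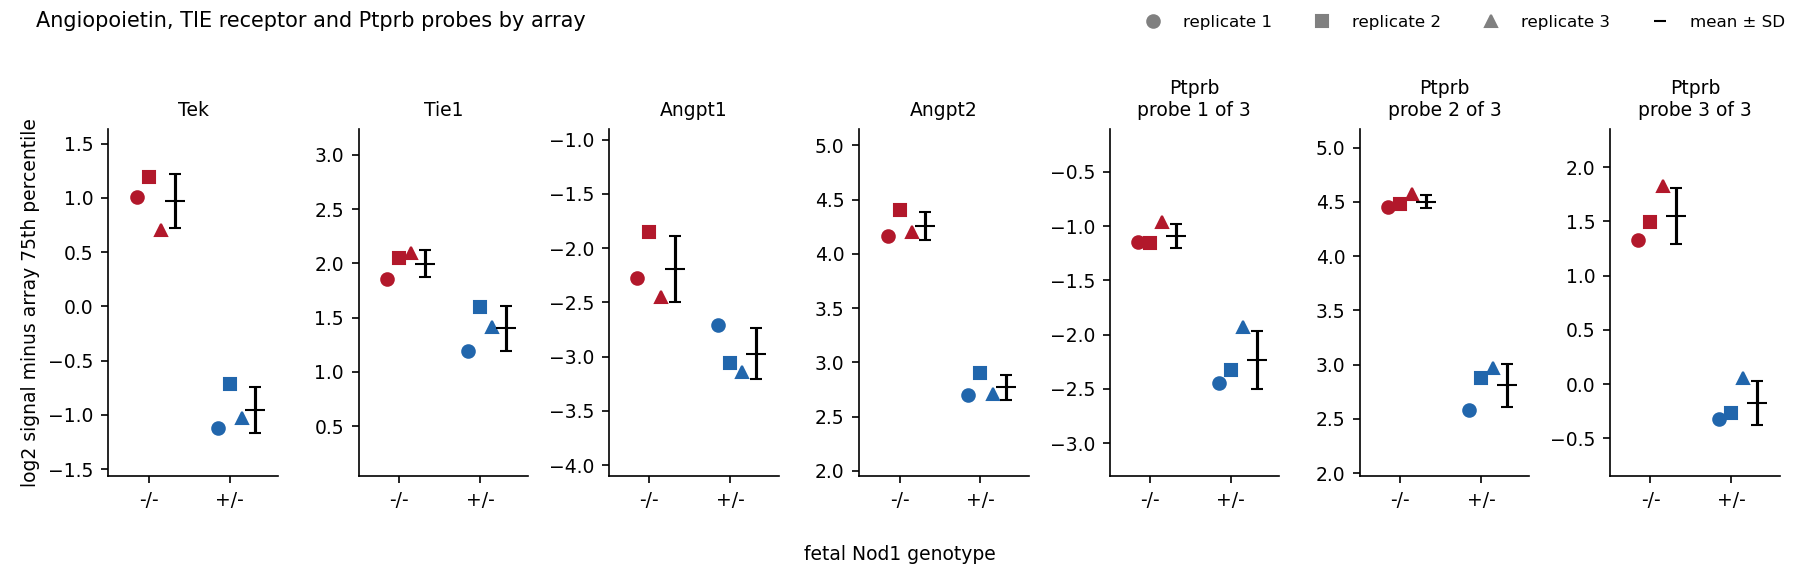
Log2 signal minus the array's 75th percentile (y axis) for each of the 7 probes, with Nod1 -/- arrays in red on the left of each panel and Nod1 +/- arrays in blue on the right; marker shape gives the replicate, and black bars the mean ± SD (n = 3). Every panel spans the same height in log2 units, so gaps can be compared but not levels. The genotypes did not overlap in any panel, and the gap was wide for Tek, Angpt2 and Ptprb and narrow for Tie1 and Angpt1.

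Whether members differed by unequal amounts was asked of 3 pairs within each array, by an exact permutation test that cannot go below 0.1 with 3 against 3 arrays. Tek minus Tie1 ran between -1.39 and -0.85 in Nod1 -/- aortas and between -2.45 and -2.31 in Nod1 +/- aortas, a gap of 1.33 between genotypes. Angpt2 minus Angpt1 ran between 6.26 and 6.65 in Nod1 -/- aortas and between 5.41 and 5.97 in Nod1 +/- aortas, a gap of 0.71 between genotypes. Both pairs were separate by genotype, with an exact two-sided permutation p of 0.1, and an adjusted p of 0.15 over 3 pairs. Tek minus Ptprb ran between -3.86 and -3.28 in Nod1 -/- aortas and between -4.00 and -3.59 in Nod1 +/- aortas. That pair overlapped, with a gap of 0.23 and an exact permutation p of 0.4, and under normexp correction the gap was -0.03, on the other side of 0.

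The profiles over the 6 arrays, each centred on its own mean, were also set side by side. The root mean square difference was 0.18 between Angpt2 and Ptprb, 0.24 between Tek and Ptprb, and 0.25 between Tek and Angpt2. It was 0.32 between Tie1 and Angpt1, and between 0.41 and 0.69 for the remaining 6 pairs. Since all profiles share the genotype contrast, these distances largely restate how alike the genotype differences of the genes were. They are descriptions over 6 arrays and add no separate evidence. Among 13942 named genes well above background on all arrays, the nearest profile to Angpt2 was that of Bmx, a TEC-family tyrosine kinase gene (0.07). Nearest to Tek were Ptplad2 (0.11) and Pid1 (0.12), and nearest to Ptprb were Rnf182 (0.08) and 4631405J19Rik (0.11). Tie1 was closest to Chn1 (0.06) and Naglu (0.07), and Angpt1 to 4930579G22Rik and Arxes2 (both 0.09).

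Within slide row 2, which held Nod1 -/- replicate 3 and all Nod1 +/- arrays, the differences were 1.66 for Tek, 1.76 for Ptprb, 1.43 for Angpt2, 0.69 for Tie1 and 0.52 for Angpt1. In each case the single Nod1 -/- array exceeded all 3 Nod1 +/- arrays. With the row as a block, Tek, Ptprb and Angpt2 stayed past the threshold, and Tie1 (adjusted p = 0.127), Angpt1 (0.291) and Ptprb probe 1 (0.0560) did not. The block left 4.81% of genes called.

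Endothelial markers, which mark the cells that make TIE2, TIE1, ANG2 and VE-PTP, went both ways. All 24 were measured, and 5 were higher, 4 were lower and 15 were not called, beside 11% higher and 7.66% lower over all genes. Both shares among the markers were above those over all genes. Over the alternatives 1 to 7 were higher and 0 to 6 lower. Their median difference was 0.11, beside 0.10 for all genes. The mean centred marker level per array was 0.18, 0.03 and -0.01 in Nod1 -/- aortas, against -0.20, -0.04 and 0.03 in Nod1 +/- aortas, so the genotypes overlapped. Summed marker signal, in multiples of the array's 75th percentile, was 507.5 to 513.1 in Nod1 -/- and 374.0 to 462.2 in Nod1 +/- aortas. These sums, which weigh bright markers most, did not overlap between genotypes.

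By name, Ramp2, a co-receptor for adrenomedullin, rose by 1.35 (adjusted p = 0.00248) and kept its call in all 21 alternatives. Clec14a, an endothelial lectin, rose by 1.29 (adjusted p = 0.00460), Cd34 by 0.56 (0.0150) and Icam2 by 0.53 (0.0224). S1pr1, a sphingosine-1-phosphate receptor, fell by 0.67 (adjusted p = 0.00872), and Tal1, a transcription factor, fell by 0.58 (0.0250). The calls of Cd34 and Icam2 were lost under median scaling, and those of Clec14a, S1pr1, Tal1, Cd34 and Icam2 with slide row as a block. Kdr, which encodes the VEGF receptor VEGFR2, differed by -0.02 (adjusted p = 0.926), Pecam1 by 0.26 (0.436) and Cdh5 by -0.30 (0.0766). These 3 were named after their values were seen, as defining endothelial genes.

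Set against the markers array by array, every one of the 5 genes remained higher in Nod1 -/- aortas. The difference relative to the marker mean was 1.79 for Tek, 1.56 for Ptprb, 1.35 for Angpt2, 0.64 for Angpt1 and 0.46 for Tie1. Genotypes did not overlap for any of the 5, with an exact permutation p of 0.1 each, the smallest possible, and 0.1 after adjustment over the 5. For Angpt1, whose product is made largely by other cells, the difference was 0.26 under normexp correction (exact permutation adjusted p = 0.3). Under quantile scaling it was 0.63 (0.2).

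**Figure D2:**
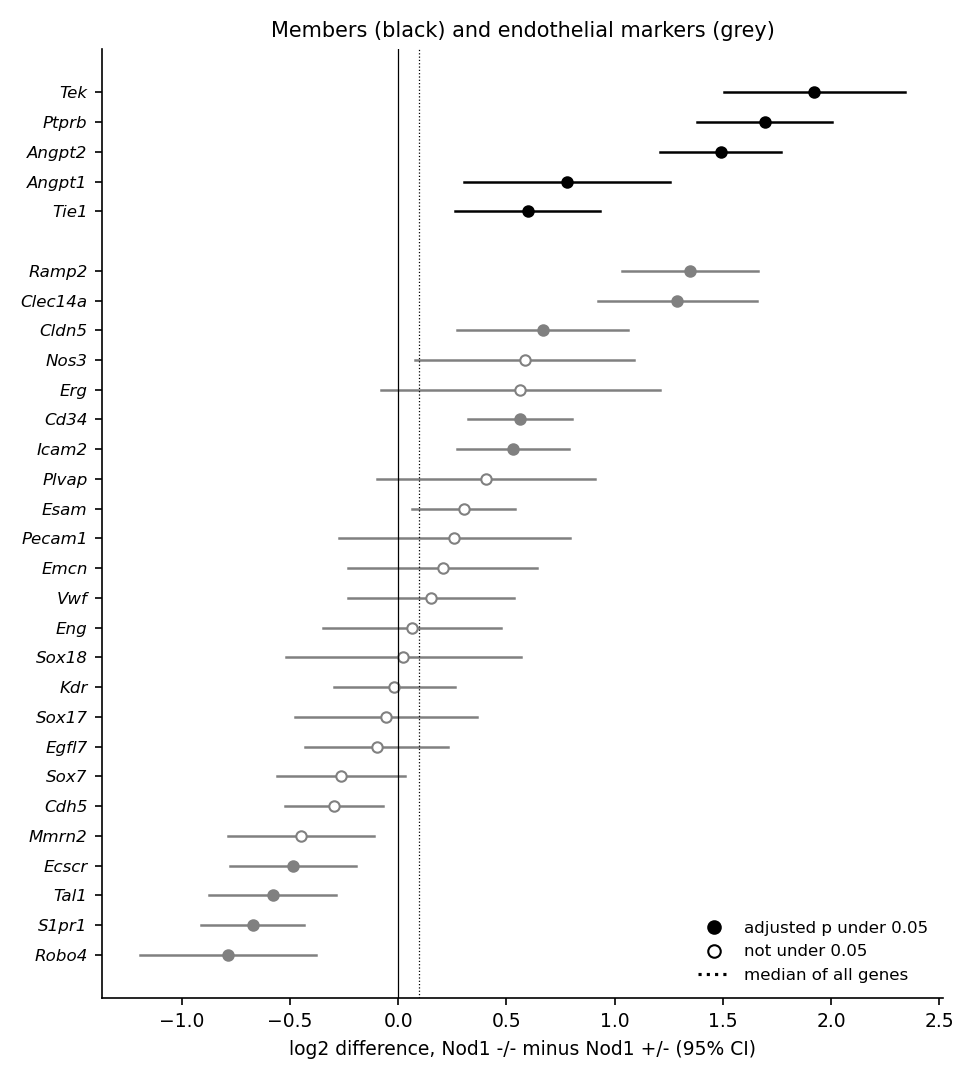
Log2 difference, Nod1 -/- minus Nod1 +/-, with 95% confidence interval from limma (x axis) for the 5 angiopoietin-TIE genes in black and the 24 endothelial markers in grey, sorted by size; filled points have an adjusted p under 0.05, and the dotted line is the median of all genes, 0.10. Tek, Ptprb and Angpt2 lie to the right of every marker, while the markers spread on both sides of 0.

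Other cell types in the vessel wall were read by their own markers. Among macrophage markers, which matter here because some macrophages carry TIE2, 2 of 11 rose, none fell and 9 were not called. The shares over all genes were 11% higher and 7.66% lower. Cx3cr1 rose by 2.05 (limma adjusted p = 0.00446) and Csf1r by 0.96 (0.0295). Outside the naming rule, Mrc1 differed by -0.58 (0.117), Cd163 by -0.42 (0.173) and Cd68 by -0.13 (0.664). The median of the macrophage markers was 0.38. Their summed signal was 69.8 to 130.3 in Nod1 -/- and 67.0 to 78.3 in Nod1 +/- aortas. Their centred mean was 0.68, 0.35 and -0.27 in Nod1 -/- aortas, against -0.29, -0.04 and -0.42 in Nod1 +/- aortas. Nod1 -/- replicates 1 and 2 were the highest arrays for these markers, and Nod1 -/- replicate 3 lay within the range of the Nod1 +/- arrays.

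Over all genes 11% were called higher and 7.66% lower. Fibroblast markers, from cells that can make ANG1, rose in 4 of 11 and fell in none. They summed to 1566 to 1644 in Nod1 -/- and 1336 to 1375 in Nod1 +/- aortas. Mural markers rose in 2 of 13, namely Kcnj8 (0.82, adjusted p = 0.0159) and Abcc9 (0.79, 0.0297), and fell in none. Their sums were 1141 to 1232 in Nod1 -/- and 1113 to 1196 in Nod1 +/- aortas. Neutrophil markers fell in 7 of 10, with a median of -3.17, or -2.98 with 2 genes at their bounds. These 2, Cxcr2 and Mmp9, are named outside the rule and count among the 7. Both were well above background on no Nod1 -/- array, and passed the filter through the Nod1 +/- arrays alone. The neutrophil markers summed to 156.6 to 212.5 in Nod1 -/- and 268.2 to 288.7 in Nod1 +/- aortas. The brightest of them in both genotypes was Csf3r (0.44, limma adjusted p = 0.218), and sums weigh bright markers most. Lymphatic endothelial markers went both ways, with Lyve1 higher (1.03, adjusted p = 0.0203), Pdpn lower (-1.54, 0.00105) and a median of 0.17. They summed to 15.3 to 20.6 in Nod1 -/- and 31.1 to 33.0 in Nod1 +/- aortas. Pdpn was the brightest of them in both genotypes, so these sums mostly follow that gene. Schwann and neuron markers rose in 2 of 9 measured and summed to 13.7 to 42.6 in Nod1 -/- and 6.01 to 13.7 in Nod1 +/- aortas. Red-cell markers summed to 1170 to 1290 in Nod1 -/- and 878.1 to 1113 in Nod1 +/- aortas, with 0 of 6 called. No skeletal muscle (8), adipocyte (4) or sex-linked (4) gene measured was called. The centred mean of adipocyte markers was 0.82, 0.73 and -1.68 in Nod1 -/- aortas, against 0.65, -0.27 and -0.25 in Nod1 +/- aortas. The lowest was Nod1 -/- replicate 3, the only Nod1 -/- array in slide row 2. For Schwann and neuron markers it was 1.58, 0.39 and -0.09 in Nod1 -/- aortas, against 0.09, -0.75 and -1.22 in Nod1 +/- aortas. The sex-linked genes varied within each genotype and were not balanced between genotypes. Xist was well above background on 1 Nod1 -/- and 2 Nod1 +/- arrays, and Eif2s3y and Ddx3y on 2 and 1. With Xist as a covariate, Tie1 and Angpt1 lost their limma calls (adjusted p = 0.0633 and 0.0931). The part of the cell types above in the angiopoietin-TIE differences was not tested.

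Counted in either direction, genes of the machinery around TIE2 were called about as often as genes in general, of which 18.7% were called. The list held 27 genes for further ligands, adaptors, kinases, integrins and other partners of TIE2. Of these, 1 was called higher, 4 lower and 22 were not called, beside 11% higher and 7.66% lower over all genes. By direction, the share higher was below that of all genes and the share lower was above it. Over the alternatives 0 to 3 were higher and 0 to 6 lower. The list's median was -0.13, against 0.10 for all genes. Dok2, an adaptor recruited to active TIE2 and also found in blood cells, fell by 1.005 (adjusted p = 0.00533). Neutrophil markers fell beside it, as given above, and their part in its value was not tested. Iqgap1, a cytoskeletal scaffold, fell by 0.89 (0.00752), and Itgav, the integrin alpha v chain, fell by 0.73 (0.0216). Tnip2, which outside the naming rule completes the 4 that fell, encodes a TIE2-binding inhibitor of NF-kB signalling and fell by 0.58 (0.0288). Angpt4, a further TIE2 ligand, was well above background on all 3 Nod1 -/- arrays and on no Nod1 +/- array. It therefore passed the filter through the Nod1 -/- arrays alone. As scaled here, its Nod1 -/- mean was at least 2.11-fold that of Nod1 +/-. The limma call (adjusted p = 0.0210) belongs to the fitted difference of 1.94, not to this bound. Under normexp correction the difference was 0.48, and the call held in 14 of 20 alternatives. With Angpt4 at that bound the list's median was still -0.13. Foxo1, a transcription factor held out of the nucleus by TIE2 and AKT, differed by -0.11 (adjusted p = 0.476), a value given although it falls outside the naming rule. With slide row as a block Dok2 kept its call (adjusted p = 0.0205), and Iqgap1, Itgav, Tnip2 and Angpt4 lost theirs (0.0704, 0.164, 0.196 and 0.164). Dok2 kept its call in 20 of the 21 alternatives and Iqgap1 in 18.

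A further list held genes whose transcription is known to follow TIE2, AKT and FOXO signalling. The 5 members, Angpt2 (1.49) among them, were not on it, so its counts leave them out. The counts set no direction for any gene, so they and the median do not measure the pathway's output. Of 14 measured, 5 fell, 1 rose and 8 were not called, beside 7.66% lower and 11% higher over all genes. Over the alternatives 2 to 5 fell and 0 to 3 rose. The list's median was -0.08, and Spry2 was not well above background on any array. Pdgfb, the growth factor with which endothelium recruits mural cells, averaged 1.70 lower in Nod1 -/- aortas (difference -1.70, adjusted p = 0.00132). Apln, the ligand of the apelin receptor, differed by -1.16 (adjusted p = 0.00395). Both kept their calls in all 21 alternatives. Bcl6, a transcriptional repressor, also fell by 1.16 (adjusted p = 0.00394), and Irs2, an insulin receptor substrate, fell by 0.92 (0.00638). Irs2 lost its call with slide row as a block (adjusted p = 0.0663). Outside the naming rule, Klf2 fell by 0.71 (0.0397) and Sesn1 rose by 0.41 (0.0302). Their calls held in 10 and 9 of 21 alternatives.

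Proteins related to the members were mixed. The angiopoietin-like genes encode secreted relatives of the angiopoietins that do not bind TIE2. Of these, 3 of 6 rose and none fell, beside 11% higher and 7.66% lower over all genes, with a median of 0.31. Angptl1 averaged 2.47 higher in Nod1 -/- aortas (adjusted p = 0.00187) and kept its call in all 21 alternatives. Angptl6 rose by 0.71 (0.0164) and Angptl7 by 0.42 (0.0368), and both lost their calls under median scaling (adjusted p = 0.0853 and 0.150). Among other receptor-type tyrosine phosphatases, 15 of 19 were measured, of which 2 rose, 1 fell and 12 were not called, with a median of 0.19. Ptprr was well above background on no Nod1 +/- array, and passed the filter through the Nod1 -/- arrays alone. As scaled here, its level was higher by at least 5.28-fold in Nod1 -/- vessels. The limma call (adjusted p = 0.00488) belongs to the fitted difference of 2.98, not to this bound. That difference was 1.30 under normexp correction and 2.16 with slide row as a block, and the call held in 19 of 20 alternatives. Ptpro, of the same phosphatase subfamily as Ptprb, rose by 1.89 (0.0217), and Ptpre fell by 0.75 (0.0339). The calls of Ptpro and Ptpre were lost with slide row as a block (adjusted p = 0.172 and 0.0618). Ptprj, also of that subfamily, differed by 0.05 (0.808) and is named outside the rule. The median with Ptprr at its bound was unchanged at 0.19.

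**Figure D3:**
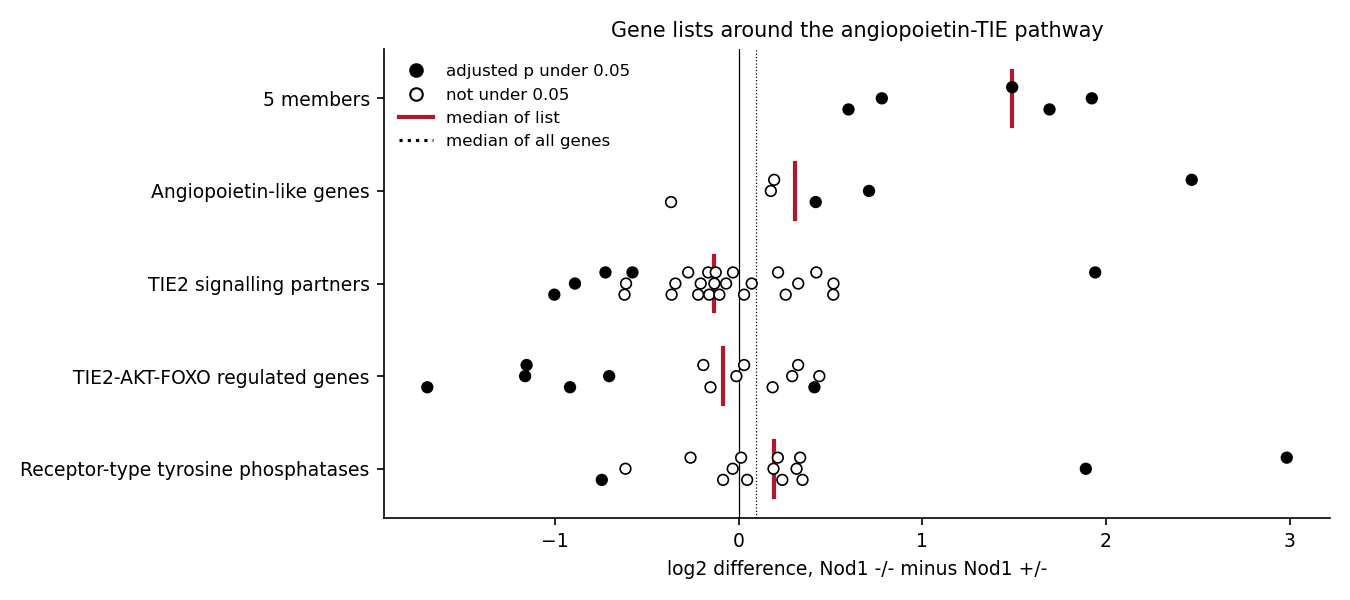
Log2 difference, Nod1 -/- minus Nod1 +/- (x axis), for every measured gene of the 5 members and 4 lists around the pathway; filled points have an adjusted p under 0.05, red bars are list medians, and the dotted line is the median of all genes. The medians were 1.49 for the members, 0.31 for angiopoietin-like genes, -0.13 for TIE2 signalling partners, -0.08 for TIE2-AKT-FOXO regulated genes and 0.19 for receptor-type phosphatases; the points of Angpt4 and Ptprr are fitted values for genes with only a bound in Nod1 +/-.

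In the promoter set used, no sequence matched Angpt1, Angpt2 or Ptprb by name. For both TIE receptor genes the 250 bases before the annotated start are shown. They come from RefSeq on GRCm38.p6, read 5′ to 3′ on the gene's strand, and capitals mark the ETS core GGAA on either strand.
Tek, chr4:94739039-94739288, plus strand: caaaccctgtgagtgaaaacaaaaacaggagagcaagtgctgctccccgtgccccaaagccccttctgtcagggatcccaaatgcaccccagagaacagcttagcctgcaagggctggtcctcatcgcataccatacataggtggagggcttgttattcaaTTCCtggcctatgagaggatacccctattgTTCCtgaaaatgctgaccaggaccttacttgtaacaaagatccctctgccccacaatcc
Tie1, chr4:118489850-118490099, minus strand: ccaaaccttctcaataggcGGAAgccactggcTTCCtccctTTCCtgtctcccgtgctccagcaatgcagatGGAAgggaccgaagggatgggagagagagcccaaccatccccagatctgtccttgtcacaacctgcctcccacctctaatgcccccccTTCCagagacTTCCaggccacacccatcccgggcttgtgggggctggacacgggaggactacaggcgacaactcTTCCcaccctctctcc
The Tek window held 2 matches to GGAA and the Tie1 window 7, in a setting where 93.4% of 32851 promoter windows of that length held at least 1. The GATA motif AGATAA (9.99% of windows), the FOXO motif GTAAACA (3.17%) and an NF-kB motif (1.41%) had 0 matches in either window, searched on both strands. A match is a run of letters and was not tied to binding here.

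How the arrays were put on one scale bore on the weaker members. Scaling to the median moved the median difference of all genes to -0.01, against 0.10 as reported, and scaling to the endothelial markers moved it to -0.04. The share of called genes that were higher in Nod1 -/- aortas was 59.0% as reported, 37.0% under median scaling and 34.5% under endothelial scaling. Tek, Ptprb and Angpt2 kept their direction and call under both, as they did in all 21 alternatives, with differences of 1.42 to 2.05, 1.52 to 1.77 and 1.19 to 1.56. Tie1 (adjusted p = 0.0987 and 0.109) and Angpt1 (0.131 and 0.122) kept their direction and lost their calls.

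**Figure D4:**
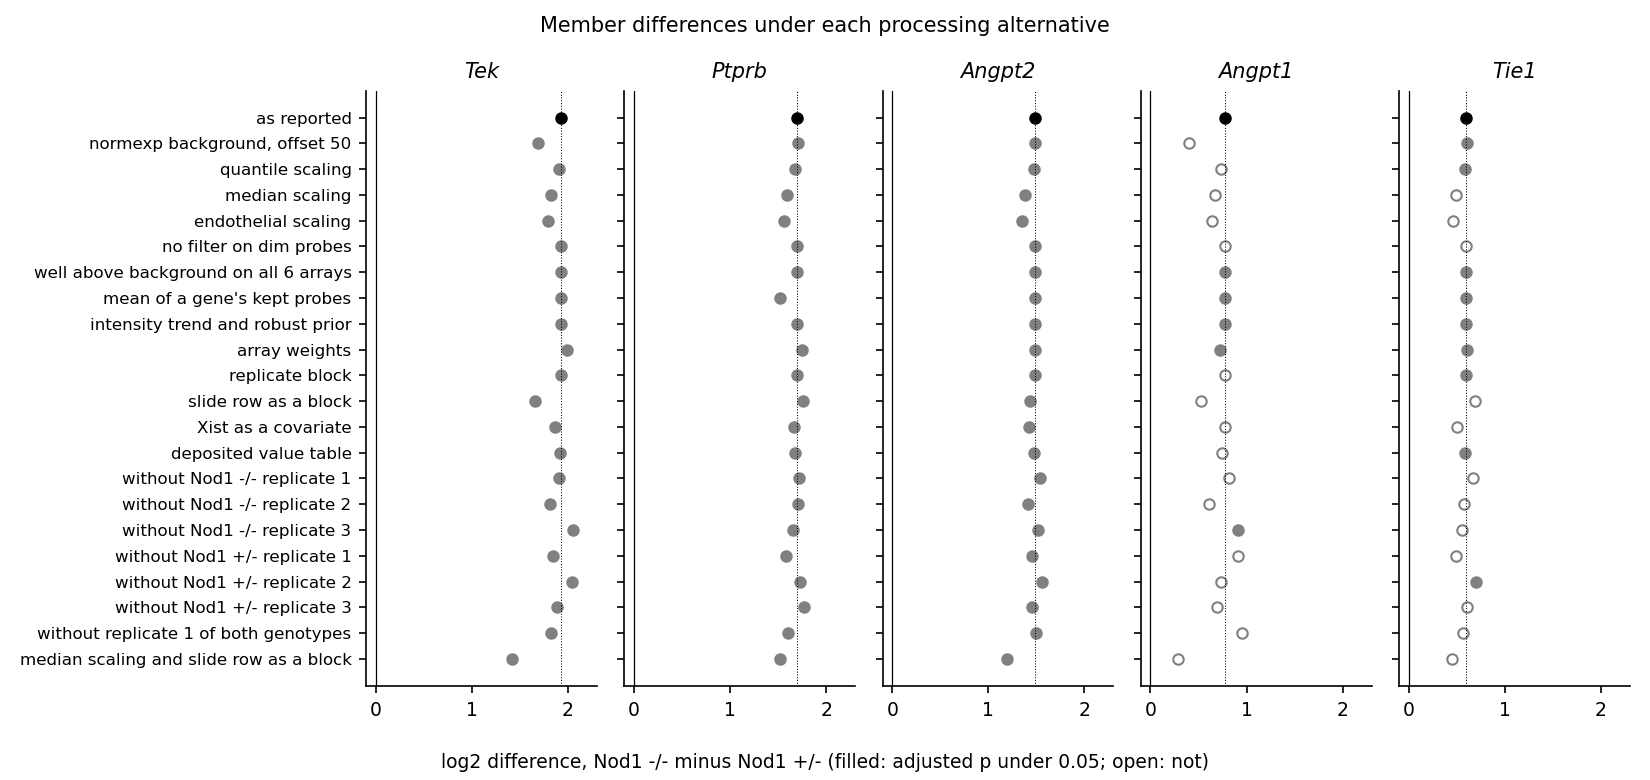
Log2 difference, Nod1 -/- minus Nod1 +/- (x axis), for each member as reported (black) and under each of 21 processing alternatives (grey, one row each); filled points have an adjusted p under 0.05. Tek, Ptprb and Angpt2 are filled throughout, Tie1 in 9 and Angpt1 in 5 alternatives, and every point lies to the right of 0.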

How the data were processed

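Agilent 1-colour Cy3 arrays measured RNA in 3 Nod1 -/- and 3 Nod1 +/- fetal aortas, grouped by the genotype in the labels. The deposited scanner output gives an intensity per spot with background already subtracted. The program was Feature Extraction, in version 10.7.1.1 per the file headers, while the submitters' processing notes name 9.5.1.1. The authors' value table, also intensity, had equal medians in every column by a step not given in the sources used here, and served as an alternative. Processed signals were taken to log2, and the 75th percentile over non-control probes of each array was subtracted. Control and outlier spots were left out, and 134 probes without a usable spot on some array. Probes well above background on at least 3 of 6 arrays were kept (30165). A gene was its kept probe with the highest mean, which made 21477 genes.

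Genotypes were compared as Nod1 -/- minus Nod1 +/- by lmFit and eBayes of limma (version 3.58.1, R 4.3.3), with Benjamini-Hochberg adjustment over all genes, or all probes, and a threshold of 0.05. Pairs of genes, and members against markers, were compared by exact permutation over arrays. Files were read with data.table (version 1.17.8). Sequences and plots used Python 3.11.15, numpy 2.4.6 and matplotlib 3.10.9. The fit was tested on simulated data. An "at least" fold sets the brighter genotype's mean against, per array, the dim probe's own signal or, where higher, the lowest signal of any probe that was well above background.

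The members and the gene lists were chosen with earlier results of these data known. Named genes were the members, Nod1, from each pathway list up to 4 called genes with the smallest p, from endothelial markers up to 6, from other cell types up to 2, and for each member the 2 nearest profiles, of which 1 is not reported here. Gene names are those of the array design. Alternatives covered background correction, scaling, filters, probe summaries, prior and array weights, replicate number or slide row as a block, Xist as a covariate, the deposited table, and leaving out arrays. The number of arrays limits the precision.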

Additional observations from a re-analysis of the deposited data

How the results depend on the processing

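Of 21 alternatives, Tek, Ptprb and Angpt2 kept their direction and call in all, Tie1 kept its call in 9 and Angpt1 in 5, and no member changed sign. As reported, 5 members, 7 member probes and 4013 genes were called. Members called were 3 under median scaling, endothelial scaling, no filter on dim probes, slide row as a block, Xist as a covariate and without replicate 1 of both genotypes, and 3 to 4 when 1 array was left out. Genes called were 2506 under median scaling, 1636 with no filter, 1033 with slide row as a block, 2281 with Xist as a covariate, 641 without replicate 1 of both genotypes, and 1459 (without Nod1 -/- replicate 2) to 3387 when 1 array was left out. Member probes called were 4 with slide row as a block and 5 whichever array was left out. Without one array the genes called were 1856 (Nod1 -/- replicate 1), 2142 (Nod1 +/- replicate 1) and 2084 (Nod1 +/- replicate 2). Median scaling together with slide row as a block, chosen after seeing the data, gave 3 members and 1223 genes. Tek minus Ptprb turned to -0.026 under normexp correction (adjusted p = 0.8). The cause of these changes was not tested. With the replicate number as a block 4040 genes were called, and Angpt1 lost its call (adjusted p = 0.0606) among the members. The deviations of same-numbered arrays correlated by 0.08, 0.28 and 0.11, and Nod1 -/- replicate 1 correlated best with Nod1 +/- replicate 3, so the numbers were not taken as pairs. Angpt1 was the dimmest member probe, at the 23.4 percentile of kept probes.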
